A study of Mus musculus with 2 samples.

Results

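NF-κB is a family of transcription factors that act as dimers, and 10 genes of its core circuit were followed here, all of them present among the 18049 genes of the expression data. Rel (c-Rel), Rela (p65), Relb, Nfkb1 (p105, processed to p50) and Nfkb2 (p100, processed to p52) encode the 5 subunits. Nfkbia (IκBα), Nfkbib (IκBβ), Nfkbid (IκBNS), Nfkbie (IκBε) and Tnfaip3 (A20) encode the 5 inhibitors. They were listed by name, and no threshold on their values was used. The question was how subunits and inhibitors were expressed in the migratory dendritic cells (DCs) of the skin-draining lymph nodes (LNs), by cell class, by mRNA cluster and with papain immunization.

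In resting cells most NF-κB dimers are held in the cytoplasm by IκB proteins. Signals such as CD40 or TNF receptor ligation activate the IκB kinase, which marks IκB for degradation and sets the dimers free. Nfkbia and Tnfaip3 are themselves induced by NF-κB and close a negative feedback loop, A20 by editing ubiquitin chains upstream of the kinase. IκBNS is an atypical, nuclear IκB that can repress or assist transcription. In the alternative pathway, the kinase NIK (Map3k14) drives processing of p100 and release of RelB-containing dimers, a pathway known for its part in DC maturation.

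CITEseq, which reads mRNA and DNA-barcoded antibodies in the same cell, was run on 2 libraries of B6 mice. By the study's methods, the naive library came from pooled skin-draining LNs of unimmunized mice. The papain library came from popliteal LNs taken 1 day after OVA plus papain in both rear footpads. The labels give no age, sex or number of mice, and they differ from the methods in naming popliteal nodes for both libraries. If the methods hold, LN site and immunization cannot be told apart. Cells were sorted as live MHCIIhi CD11c+ B220- and the authors' antibody classes gave 707 CD301b-high, 659 CD301b-intermediate and 658 CD301b-low cDC2s, 578 cDC1s and 440 Langerhans cells (LCs) in the naive library, and 2893, 1827, 1470, 235 and 881 cells in the papain library. A level below is the number of unique molecular identifiers (UMIs) of a gene summed over the cells of a class, per 1000000 UMIs of those cells (CPM). With 1 library per condition no p-value can be given. The 95% intervals are exact and cover counting error only, not mice or libraries. A ratio is called past 1.5-fold when its log2 is at least 0.585 in size and the mean of both groups is at least 10 CPM.

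The labels of LCs, cDC1s and cDC2s were borne out by their summed markers, whereas the split of cDC2s by CD301b rests on the antibody. The summed level of Cd207 and Epcam was 148.1 and 215.3 CPM in naive and papain LCs and at most 38.3 CPM in the other classes. The sum of the cDC1 markers Xcr1, Clec9a and Cadm1 was highest in cDC1s, at 49.8 and 32.5 CPM. That of Sirpa, Mgl2 and Irf4 was highest in the 3 cDC2 classes, at 126.2 to 217.3 CPM. Mgl2, the gene of CD301b, was at 56.1, 59.1 and 15.2 CPM in naive CD301b-high, -intermediate and -low cDC2s. In the same papain classes it was near the floor, at 1.21, 0.48 and 0.83 CPM. Naive Irf4 ran the other way, at 47.6, 54.7 and 64.7 CPM. Transcripts of other cells were not spread evenly. The 4 T cell markers summed to 145.8 CPM in naive cDC1s and 20.5 CPM in papain cDC1s, against 8.4 to 43.7 CPM in the other classes, with none of the 4 at 0 in any class. The macrophage and monocyte list, mostly Lyz2, summed to 566.8 to 720.6 CPM in naive cDC2s and 18.5 to 96.6 CPM in papain cDC2s. Median depth was 13764 UMIs per naive cell and 14738 per papain cell, and the libraries shared 2 barcodes.

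The NF-κB consensus of 10 bases, a sequence to which these dimers are known to bind, was searched on both strands in the 250 bases before the start sites listed by RefSeq (GRCm38.p6), with overlapping matches merged. Of the 10 genes 8 matched the table, which holds no entry for Relb and Nfkb1. A match was found for 6 of the 8 (Rel, Nfkb2, Nfkbia, Nfkbid, Nfkbie and Tnfaip3), whereas 4.46% of all 27025 genes held one. The stretches below are shown because these genes are both parts of the circuit and, for Nfkbia and Tnfaip3, known targets of it. Not shown are a further match of Tnfaip3 (12 bases before the start), a further match of Nfkbid (181 bases before a start) and the matches of Nfkb2. Capitals mark the match, and each is read 5′ to 3′ on the strand of the gene.
Nfkbia, chr12:55492657-55492686, minus strand, 29 bases before the start: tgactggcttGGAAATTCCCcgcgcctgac
Tnfaip3, chr10:19015516-19015545, minus strand, 125 bases before the start: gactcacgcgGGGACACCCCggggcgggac
Rel, chr11:23771041-23771071, minus strand, 92 bases before the start: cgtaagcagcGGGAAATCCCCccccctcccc
Nfkbie, chr17:45555584-45555613, plus strand, 106 bases before the start: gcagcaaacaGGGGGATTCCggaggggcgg
Nfkbid, chr7:30422170-30422199, plus strand, 226 bases before a start: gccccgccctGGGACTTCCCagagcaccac
The first 4 stretches lie outside the annotated genes, and that of Nfkbid lies inside its annotated span (chr7:30421731-30428749), before an internal start site. A match is a description of the letters and does not show binding in these cells.

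Among the subunits, Rel was the most abundant by UMIs in all classes except cDC1s. In the naive library it stood at 1480.2 CPM (95% interval 1458 to 1503) in CD301b-high, 1437 in CD301b-intermediate and 1496 in CD301b-low cDC2s, and at 1563 CPM in LCs. The cDC1s stood apart at 625.4 CPM (609.6 to 641.5). With papain, Rel was at 968.8, 926.9 and 1086 CPM in CD301b-high, -intermediate and -low cDC2s, 1008 CPM in LCs and 711.5 CPM (682.0 to 741.9) in cDC1s. Levels of different genes are compared only as UMI shares, since 3′ counts do not grow with transcript length but capture may differ between genes.

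**Figure D1:**
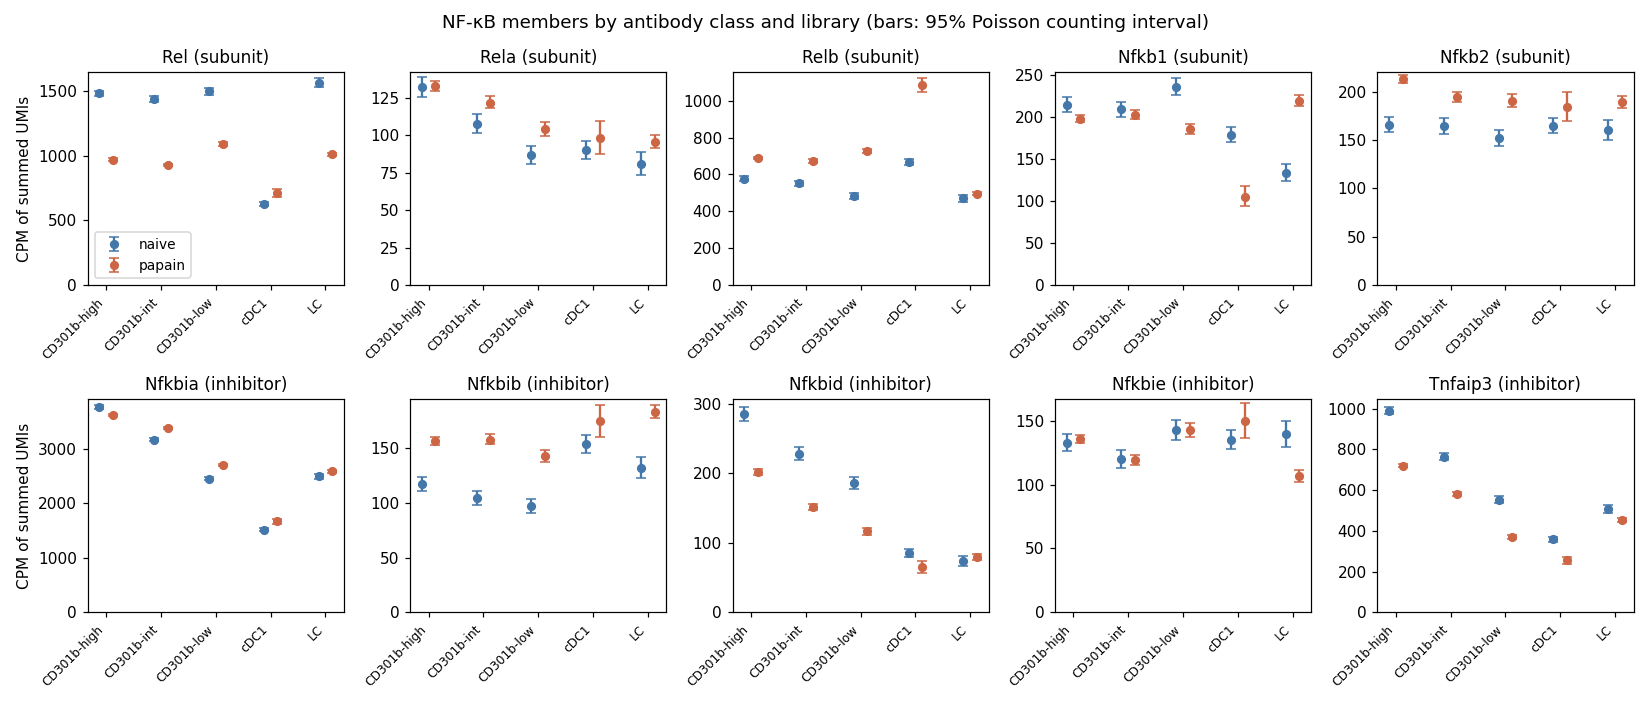
Level of each of the 5 subunits (top row) and 5 inhibitors (bottom row) in CPM of summed UMIs (linear axes from 0) by antibody class, in blue for the naive and orange for the papain library, with 95% Poisson counting intervals. Rel is lower in the papain library in all classes but cDC1s, Relb is highest in papain cDC1s at 1085 CPM, and Nfkbia, Nfkbid and Tnfaip3 step down from CD301b-high to CD301b-low cDC2s in both libraries.

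Relb, the subunit best known for mature DCs, was ordered otherwise. It was highest in cDC1s, at 666.3 CPM naive and 1085 CPM papain (1049 to 1123). The naive cDC2s followed with 576.1, 551.4 and 482.5 CPM from CD301b-high to CD301b-low, and naive LCs with 469.4 CPM, whose interval overlapped that of the CD301b-low cDC2s. Papain cDC2s had 689.7, 672.5 and 726.9 CPM and papain LCs 495.8 CPM. Relb UMIs per Rel UMI were 0.389 in naive and 0.712 in papain CD301b-high cDC2s, and 1.07 and 1.53 in cDC1s.

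Rela, the subunit of the classical p50-p65 dimer, was graded with CD301b in both libraries. Its naive levels were 132.2, 107.8 and 86.6 CPM from CD301b-high to CD301b-low, and its papain levels 132.7, 121.9 and 103.9 CPM. The 95% intervals of the 3 cDC2 classes did not overlap within either library. In cDC1s it was at 90.2 and 98.0 CPM and in LCs at 80.9 and 95.8 CPM.

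Nfkb2 varied least between classes. Its naive levels lay between 152.2 and 166.0 CPM in all 5 classes, and their intervals overlapped. The papain levels lay between 184.2 and 212.8 CPM, with CD301b-high cDC2s the highest at 212.8 CPM (208.8 to 216.9) and the intervals of the other 4 classes overlapping.

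Nfkb1 gave 214.5, 208.7 and 235.7 CPM in naive CD301b-high, -intermediate and -low cDC2s, 178.7 CPM in naive cDC1s and 133.4 CPM in naive LCs. Its papain levels were 197.8, 202.7 and 185.2 CPM in the cDC2s, 105.1 CPM in cDC1s and 219.2 CPM in LCs. The naive cDC1 value moved with the cells that carried T or B cell transcripts. Without the 91 of 578 naive cDC1s that held a UMI of Cd3e, Trac, Cd79a or Ms4a1, Nfkb1 was at 106.4 CPM (99.3 to 113.9), close to the 105.1 CPM left in papain cDC1s by the same filter.

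Nfkbia was the most abundant inhibitor in every class and made up 67.4% to 77.8% of inhibitor UMIs. Its naive level was 3757 CPM in CD301b-high, 3167 in CD301b-intermediate and 2451 in CD301b-low cDC2s, 2491 (2449 to 2534) in LCs and 1517 in cDC1s. The papain cDC2s kept this grading, with 3618, 3384 and 2701 CPM in the cDC2s, 2583 CPM in LCs and 1672 CPM in cDC1s, which were again the lowest. Only naive LCs and CD301b-low cDC2s were neighbours with overlapping intervals.

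Tnfaip3 followed the same grading. Its naive level was 989.7, 762.8 and 553.2 CPM from CD301b-high to CD301b-low, 508.3 CPM in LCs and 358.0 CPM in cDC1s, with no overlap of intervals. In the papain library CD301b-high, -intermediate and -low cDC2s had 718.7, 579.7 and 370.7 CPM. There LCs, at 453.5 CPM, stood above the CD301b-low cDC2s, and cDC1s were again lowest at 254.8 CPM.

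Nfkbid was highest in the cDC2s. Naive CD301b-high, -intermediate and -low cDC2s had 284.5, 227.7 and 185.3 CPM, and papain cDC2s 201.3, 151.4 and 116.3 CPM. In cDC1s it was at 85.3 and 64.4 CPM and in LCs at 73.7 and 79.7 CPM, naive and papain. The intervals of cDC1s and LCs did not overlap those of any cDC2 class of the same library.

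Nfkbib and Nfkbie varied less with CD301b. Nfkbib was at 117.6, 104.7 and 97.1 CPM in naive cDC2s, 132.3 CPM in LCs and 153.8 CPM in cDC1s, and its papain levels were 143.0 to 183.6 CPM. Nfkbie lay between 120.0 and 143.0 CPM in the naive classes and between 107.0 CPM (LCs) and 149.7 CPM (cDC1s) in the papain classes. CD301b-low cDC2s, at 143.0 and 142.6 CPM, were the highest of the cDC2s for Nfkbie in both libraries.

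The levels did not come from a few cells. No cell gave more than 5.36% of the UMIs of a member in any class, and in papain CD301b-high cDC2s none gave more than 0.350%. Per cell, Nfkbia in naive CD301b-high cDC2s had a median of 3844 CPM (10th percentile 1380, 90th percentile 6237), against a median of 2057 CPM (466 to 5182) in CD301b-low cDC2s. The same percentiles of Tnfaip3 were 229, 890 and 1912 CPM in naive CD301b-high and 70.3, 405 and 1221 CPM in naive CD301b-low cDC2s. The cells of the classes thus overlapped widely for both genes.

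CD301b-high cDC2s, the subset the study is about, were next set against CD301b-low cDC2s of the same library. In the naive library 4 members were past 1.5-fold higher and none lower: the subunit Rela and the inhibitors Nfkbia, Nfkbid and Tnfaip3. Of all 7111 genes compared, 4.84% were past it higher and 7.76% lower. Tnfaip3 had a log2 ratio of 0.84 (0.79 to 0.89), Nfkbia and Nfkbid of 0.62 each and Rela of 0.61 (0.49 to 0.74). The other 6 lay between −0.14 (Nfkb1) and 0.28 (Nfkbib).

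In the papain library 2 members, Tnfaip3 at 0.96 (0.92 to 0.99) and Nfkbid at 0.79 (0.72 to 0.86), were past 1.5-fold higher in CD301b-high than CD301b-low cDC2s and none was lower, against 3.96% of 6899 genes higher and 3.22% lower. Nfkbia followed at 0.42 (0.41 to 0.44) and Rela at 0.35. The median log2 ratio of the 5 inhibitors was 0.62 naive and 0.42 papain, that of the 5 subunits 0.13 and 0.09, and that of all genes −0.05 and 0.01. The study had itself printed Nfkbia, Tnfaip3 and Nfkbid for CD301b-high cells of these libraries, so these 3 are not independent evidence of a direction.

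The macrophage and T cell transcripts of the naive cDC2s moved with part of this. Naive cluster 5 of the authors' mRNA clustering (246 cells, 58.1% of them CD301b-low) had a macrophage and monocyte sum of 3933 CPM, and naive cluster 7 (50 cells, 68.0% CD301b-low) a T cell sum of 658.8 CPM. Without both clusters, a choice made after seeing the data, the naive CD301b-high to CD301b-low log2 ratios were 0.80 for Tnfaip3, 0.89 for Nfkbid, 0.48 for Nfkbia and 0.50 for Rela, and 2 members were past 1.5-fold. Relb changed from 0.26 to 0.10 and Nfkb1 from −0.14 to 0.14.

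**Figure D2:**
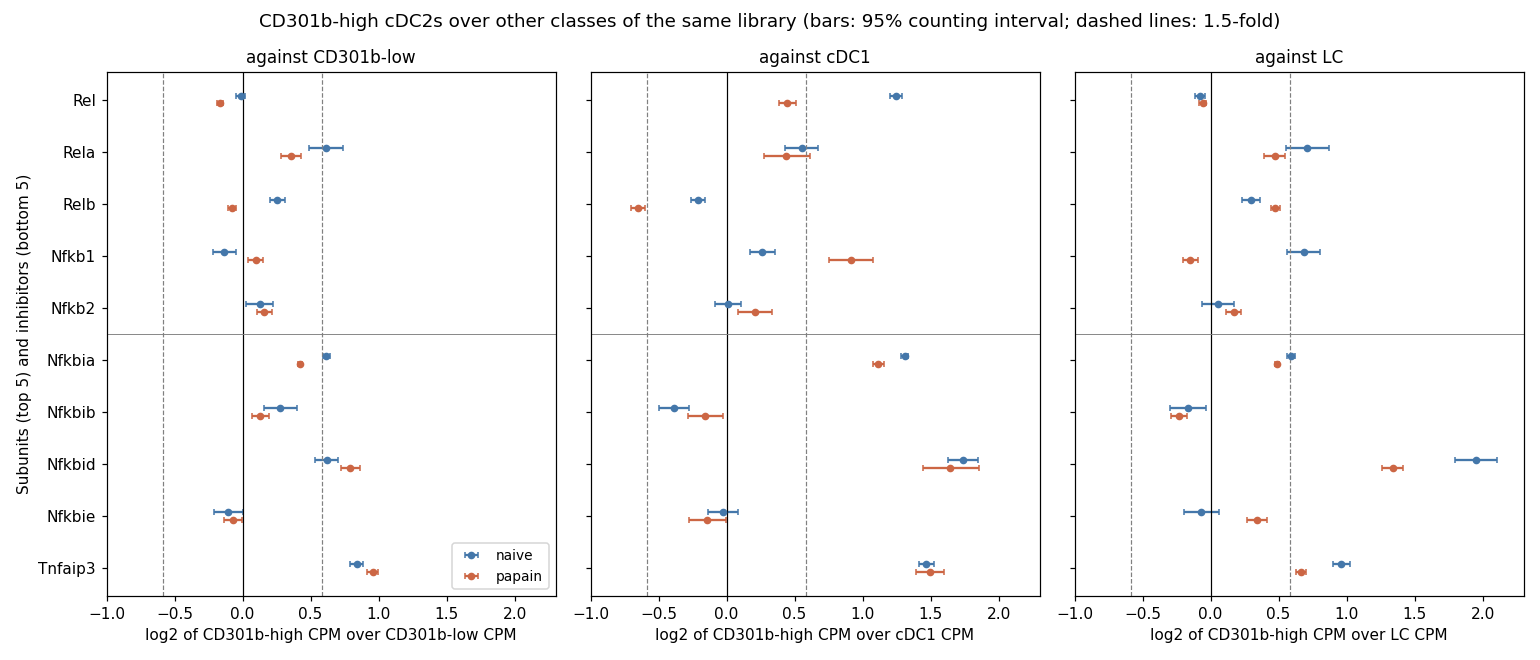
Log2 ratio of the CPM of CD301b-high cDC2s to that of CD301b-low cDC2s, cDC1s and LCs of the same library for the 5 subunits (above the line) and 5 inhibitors (below it), with 95% counting intervals and dashed lines at 1.5-fold. Nfkbid and Tnfaip3 are to the right of the dashed line in all 3 panels and both libraries, and Relb is to the left of 0 against cDC1s in both.

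Within the authors' clusters the grading of Tnfaip3 held its sign. In the 3 naive clusters with at least 50 cells of both classes, its CD301b-high to CD301b-low log2 ratio was 0.52 to 0.84. In the 7 papain clusters it was 0.06 to 1.02 with a median of 0.47, and its interval included 0 in clusters 6 and 7. Nfkbid was above 0 in 3 of 3 and 6 of 7 clusters, with medians of 0.49 and 0.44, and its interval included 0 in papain clusters 4, 6 and 7. Nfkbia was above 0 in 3 of 3 naive clusters (0.28 to 0.65) and 6 of 7 papain clusters, with a papain median of only 0.14. Rela was above 0 in all of them, with medians of 0.23 and 0.28, while Relb had medians of −0.02 and 0.04. The interval of Rela included 0 in naive clusters 1 and 2 and in papain clusters 2, 3, 4 and 7. The clusters were made from the mRNA of these cells, so these values are a description.

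Against cDC1s, the differences were larger. In the naive library 4 members were past 1.5-fold higher in CD301b-high cDC2s and none lower, where 16.5% of 6972 genes were higher and 13.6% lower. They were Nfkbid with a log2 ratio of 1.74, Tnfaip3 with 1.47, Nfkbia with 1.31 and Rel with 1.24. In the papain library, where 16% of 6781 genes were higher and 9.22% lower, Nfkbid (1.64), Tnfaip3 (1.5), Nfkbia (1.11) and Nfkb1 (0.91) were past 1.5-fold higher and Relb, at −0.65 (−0.71 to −0.60), was past it lower. Rel differed less there, at 0.45 (0.38 to 0.51). Nfkb1 was at 0.26 in the naive comparison, but at 1.00 (0.88 to 1.12) without the cells that held T or B cell UMIs.

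Against LCs, 5 members were past 1.5-fold higher in naive CD301b-high cDC2s and none lower, beside 14.1% and 13.8% of 7087 genes. Nfkbid had the widest gap of the 10, with a log2 ratio of 1.95 (1.80 to 2.10), followed by Tnfaip3 at 0.96, Rela at 0.71, Nfkb1 at 0.69 and Nfkbia at 0.59. Among papain cells 2 were higher, Nfkbid at 1.34 (1.26 to 1.42) and Tnfaip3 at 0.66 (0.63 to 0.70), and none lower, beside 6.46% and 6.33% of 7012 genes. Nfkb1 was at −0.15 there (−0.20 to −0.10). Rel was nearly level between both classes, at −0.08 and −0.06.

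Set against each other as sums of UMIs, inhibitors exceeded subunits in every class, but only through Nfkbia. Without it the ratio was 0.295 to 0.594, so that subunits exceeded inhibitors in every class. As capture may differ between genes, only differences of the ratio between groups are read. Inhibitor UMIs per subunit UMI were 2.06 (2.03 to 2.08), 1.78 and 1.40 in naive CD301b-high, -intermediate and -low cDC2s, 1.39 in LCs and 1.30 in cDC1s. In the papain library they were 2.19 (2.18 to 2.21), 2.07 and 1.52 in the cDC2s, 1.70 in LCs and 1.06 (1.03 to 1.10) in cDC1s. The ratio was thus higher in the papain library in all classes except cDC1s, where it was lower. The subunit sum was lower with papain in all classes but cDC1s, whereas the inhibitor sum was lower only in CD301b-high cDC2s. There inhibitors summed to 5282 CPM naive and 4830 CPM papain, and subunits to 2569 and 2202 CPM. In cDC1s inhibitors summed to 2249 and 2316 CPM, and subunits to 1725 and 2184 CPM. Without Nfkbia the ratio was 0.594 naive and 0.551 papain in CD301b-high cDC2s, and 0.399 and 0.337 in CD301b-low cDC2s, and it was higher in the papain library in LCs only, at 0.355 and 0.410.

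**Figure D3:**
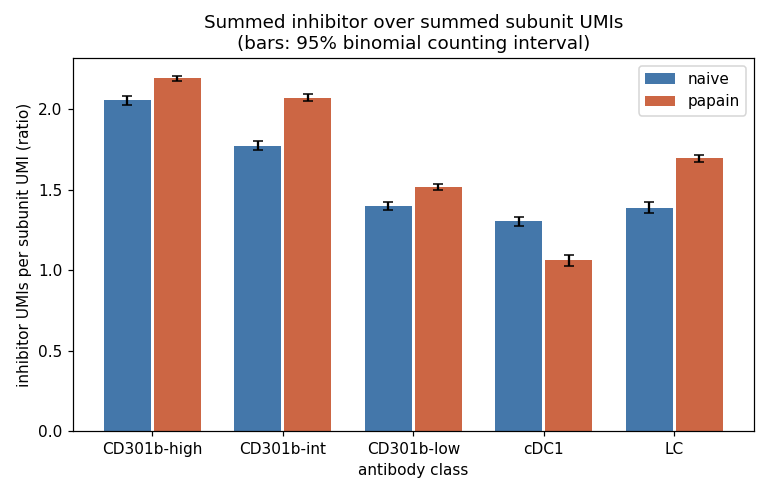
Summed inhibitor UMIs per summed subunit UMI (bars from 0, 95% binomial counting intervals) by antibody class for the naive (blue) and papain (orange) library. The bars fall from 2.06 and 2.19 in CD301b-high cDC2s to 1.30 and 1.06 in cDC1s, the class in which the papain bar is the lower one.

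The papain library was then compared with the naive library within each class. In CD301b-high cDC2s 1 member was past 1.5-fold, Rel, which was lower with a log2 ratio of −0.61 (−0.64 to −0.59), while 9.84% of 6909 genes were past it higher and 7.57% lower. Nfkbid and Tnfaip3 were lower by less, at −0.50 (−0.56 to −0.44) and −0.46 (−0.49 to −0.43). Nfkbib, at 0.41 (0.33 to 0.50), Nfkb2, at 0.36 (0.29 to 0.43), and Relb, at 0.26 (0.22 to 0.30), were higher. Nfkbia, at −0.05, Rela, at 0.01, and Nfkbie, at 0.03, hardly differed between the libraries.

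CD301b-intermediate cDC2s gave the same signs for 8 of the 10 members. Past 1.5-fold were 3 members: Rel, lower at −0.63, Nfkbid, lower at −0.59, and Nfkbib, higher at 0.60 (0.50 to 0.69), beside 10.6% of 7009 genes higher and 9.3% lower. Nfkbid and Nfkbib lay just past the threshold, and their intervals included it. Nfkbid was at −0.57, inside the threshold, without cells that held T or B cell UMIs. Without naive clusters 5 and 7 only Rel, at −0.67, was past 1.5-fold.

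In CD301b-low cDC2s Relb was past 1.5-fold higher, at 0.59 (0.54 to 0.64), and Nfkbid lower, at −0.67 (−0.77 to −0.58), beside 10.7% of 7134 genes higher and 12.2% lower. The intervals of both included the threshold, and Relb was at 0.57 without cells that held T or B cell UMIs. Tnfaip3, at −0.58, and Nfkbib, at 0.56, lay just inside it. Rel was lower by less than in the other cDC2s, at −0.46. Without naive clusters 5 and 7 Relb was at 0.33, Nfkbid at −0.40, Nfkb1 at 0.08 in place of −0.35 and Tnfaip3 at −0.65, then the only member past 1.5-fold.

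The cDC1s differed from the cDC2s in Rel, which was higher in the papain library at 0.19 (0.11 to 0.26). Relb was past 1.5-fold higher, at 0.70 (0.64 to 0.76), and Nfkb1 lower, at −0.77 (−0.94 to −0.59), beside 9.82% of 6781 genes higher and 10.4% lower. Without cells that held T or B cell UMIs, Relb was at 0.61 (0.54 to 0.67) and Nfkb1 at −0.02 (−0.21 to 0.17), so that 1 member was left past 1.5-fold. Tnfaip3 and Nfkbid were at −0.49 and −0.40, and by the same filter at −0.36 (−0.48 to −0.24) and −0.22 (−0.47 to 0.02). The class itself differed between the libraries. Its median CD326 antibody value (natural log scale) was 1.63 naive and 0.436 papain, Epcam was at 29.2 and 7.49 CPM, and both cDC1 markers that passed the level filter, Xcr1 and Cadm1, were past 1.5-fold lower with papain. The part of these differences in the cDC1 ratios was not tested.

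In LCs Nfkb1 was past 1.5-fold higher in the papain library, from 133.4 to 219.2 CPM with a log2 ratio of 0.72 (0.60 to 0.83), and it was at 0.73 without cells that held T or B cell UMIs. Rel was past it lower, at −0.63 (−0.67 to −0.60), beside 13.8% of 7162 genes higher and 7.99% lower. Nfkbie was at −0.38 (−0.50 to −0.26), whereas its intervals included 0 in the other 4 classes, a difference between classes that was not tested. Nfkbid, at 0.11, and Tnfaip3, at −0.16, were closer to 0 than in the other classes.

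**Figure D4:**
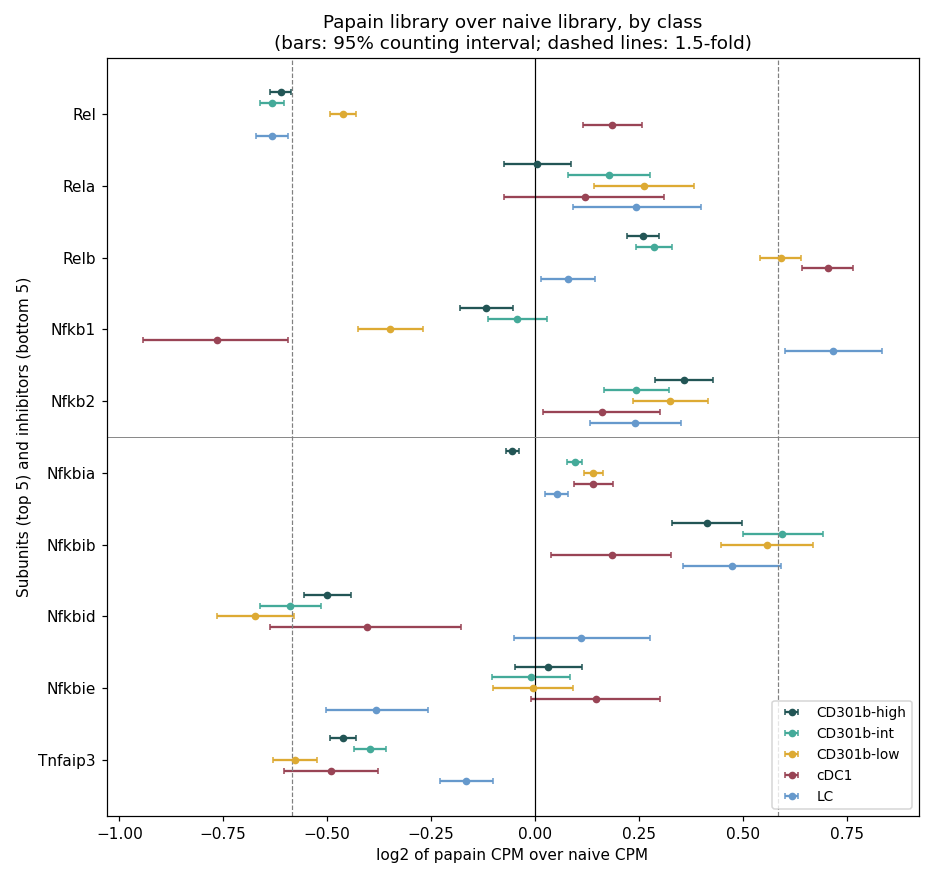
Log2 ratio of papain to naive CPM of each member (subunits above the line, inhibitors below it) in each of the 5 classes, with 95% counting intervals and dashed lines at 1.5-fold. Rel lies left of 0 in 4 classes and at 0.19 in cDC1s, Nfkb1 spreads from −0.77 in cDC1s (−0.02 without cells with T or B cell UMIs) to 0.72 in LCs, and all Nfkb2 and Nfkbib points lie right of 0.

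Across the 5 classes, Nfkb2, Relb and Nfkbib were higher in the papain library in 5 of 5 and Tnfaip3 was lower in 5 of 5. Rel and Nfkbid were lower in 4 of 5, all but cDC1s and LCs respectively. In cDC1s without cells that held T or B cell UMIs, Nfkb2 was at 0.13 (−0.02 to 0.28) and Nfkbib at 0.12 (−0.03 to 0.27). Both intervals included 0. The shares of all genes with such signs are not given here, so these counts cannot be read as a result about the members. The median log2 ratio of the subunits was 0.01, 0.18, 0.26, 0.16 and 0.24 in CD301b-high, -intermediate and -low cDC2s, cDC1s and LCs, that of the inhibitors −0.05, −0.01, −0.00, 0.14 and 0.05, and that of all genes 0.09, 0.06, 0.02, 0.03 and 0.06. The medians of both lists thus hid members that went opposite ways.

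Early response and stress genes, many of which cell dissociation can also induce, were lower with papain in the cDC2s, as were Rel, Tnfaip3 and Nfkbid. They were also lower in cDC1s and LCs. Rel was at 625.4 CPM in naive and 711.5 CPM in papain cDC1s. Nfkbid was at 73.7 CPM (66.6 to 81.4) in naive and 79.7 CPM (75.6 to 83.9) in papain LCs, with overlapping intervals. Of the 14 listed, 7 were past 1.5-fold lower in papain CD301b-high cDC2s, 8 in CD301b-intermediate, 10 in CD301b-low, 6 in cDC1s and 5 in LCs, and 1 was higher in cDC1s and none elsewhere. Of all genes 7.57%, 9.3%, 12.2%, 10.4% and 7.99% were past it lower in these classes, and 9.82% higher in cDC1s. In CD301b-high cDC2s Fos was at 649.9 CPM naive and 305.6 CPM papain, Atf3 at 283.6 and 125.7 CPM and Zfp36 at 1846 and 964.7 CPM. Their part in the lower Rel, Tnfaip3 and Nfkbid was not tested.

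The genes that carry signals to NF-κB were also compared between the libraries. Of 14 activators (the IκB kinase subunits, NIK, TRAF, cIAP and related adaptor genes), none was past it in any cDC2 class. In papain cDC1s 3 were higher, and in LCs 1 was higher and 1 lower. Of all genes, 9.84% to 10.7% were higher and 7.57% to 12.2% lower in the cDC2 classes. In cDC1s 9.82% were higher and 10.4% lower, and in LCs 13.8% and 7.99%. With 14 genes, counts this small do not set the classes apart. Ikbkb, the catalytic IKKβ subunit, was at 316.5 and 446.2 CPM in naive and papain CD301b-high cDC2s, a log2 ratio of 0.50. Map3k14 was at 121.6 and 99.6 CPM. Between CD301b-high and CD301b-low cDC2s, 1 of 14 was past 1.5-fold higher in the naive library, Birc3 (cIAP2) at 0.59, and none in the papain library. The shares of all genes were 4.84% and 3.96%.

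Other inhibitors of the pathway were mixed. Of 10 genes listed, 9 passed the level filter in the cDC2 comparisons. Between CD301b-high and CD301b-low cDC2s, 1 of them was past 1.5-fold higher in naive cells, and 1 higher and 1 lower in papain cells. The shares of all genes were 4.84% higher in naive cells, and 3.96% higher and 3.22% lower in papain cells. Nfkbiz, which encodes the nuclear IκBζ, was graded like Nfkbid, with 681.5 CPM in naive CD301b-high and 372.7 CPM in CD301b-low cDC2s and 480.7 and 218.0 CPM in the same papain classes. Tnip3, an A20-binding protein gene, was at 88.4 CPM in naive and 21.3 CPM in papain CD301b-high cDC2s, the only one of the 9 past 1.5-fold between these. Of all genes 7.57% were past it lower there.

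Of 16 known NF-κB targets, 9 among naive and 7 among papain cells were past 1.5-fold higher in CD301b-high than CD301b-low cDC2s. None was lower, and the medians were 0.60 and 0.56. Of all genes 4.84% naive and 3.96% papain were past it higher, and 7.76% and 3.22% lower. Cd40 was at 528.9 against 205.9 CPM naive and 843.7 against 429.6 CPM papain. Irf1 was at 393.6 against 181.0 CPM and 412.6 against 255.9 CPM, and Tnf at 87.6 against 40.3 CPM and 39.2 against 19.7 CPM. Between the libraries the targets diverged within CD301b-high cDC2s. There 4 of 16 were higher in papain, among them Ccl17 (417.6 to 847.4 CPM) and Cd40, and 3 were lower, among them Il12b (158.4 to 39.0 CPM) and Tnf. Of all genes 9.84% were higher and 7.57% lower in that comparison. Cd40 and Icam1 were also printed by the study for these cells.

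Across the authors' mRNA clusters of cDC2s (7 naive and 9 papain clusters with 50 cells or more), every member varied by at least 1.60 times. The naive range was widest for Nfkbid, from 95.1 CPM in cluster 4 to 321.3 CPM in cluster 2, a ratio of 3.38, and narrowest for Nfkbie, at 1.60. Naive cluster 2 was highest for Rel (1834 CPM), Rela, Nfkb2, Nfkbia (4060 CPM), Nfkbid and Tnfaip3 (1010.3 CPM). Its intervals for Rela, Nfkbid and Tnfaip3 overlapped those of cluster 6, and Nfkb2 was level with cluster 1, at 179.1 and 178.8 CPM. Naive cluster 5, with its macrophage transcripts, was lowest for Relb (231.0 CPM), Nfkb2, Nfkbia (2021 CPM, beside 2026 CPM in cluster 7) and Tnfaip3 (507.9 CPM, beside 534.3 CPM in cluster 4) but high for Nfkb1 (360.5 CPM).

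Papain cluster 6 (430 cells, 24.2% CD301b-high and 41.2% CD301b-low) stood apart from the other papain clusters. It had 1193 CPM of Nfkbia where the others had 2497 to 4418, 324.2 CPM of Rel where the others had 825.5 to 1460.4, and 194.4 CPM of Tnfaip3, the lowest of 9. Its Relb was not low, at 783.4 CPM, second to the 962.3 CPM of cluster 4. The early response and stress list summed to 1890 CPM there, against 3778 to 6829 CPM in the other papain clusters. The T cell, B cell and macrophage sums of cluster 6 were 6.66, 4.89 and 19.6 CPM.

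Papain cluster 8 (316 cells, 50.6% CD301b-high) was the opposite case. It had the highest Tnfaip3 (1033 CPM), Nfkb1 (308.5 CPM), Nfkbid (256.5 CPM) and Rela (186.9 CPM) and also the highest early response and stress sum, 6829 CPM. Its median depth, 7249 UMIs per cell, was the lowest of the 9. Papain cluster 9 was lowest for Relb (372.7 CPM), Nfkb2 (126.9 CPM), Rela (70.7 CPM) and Nfkbid (59.2 CPM, beside 64.0 CPM in cluster 6). Its T cell sum was 74.8 CPM where the other 8 had 4.94 to 23.5 CPM. What these differences come from was not tested.

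**Figure D5:**
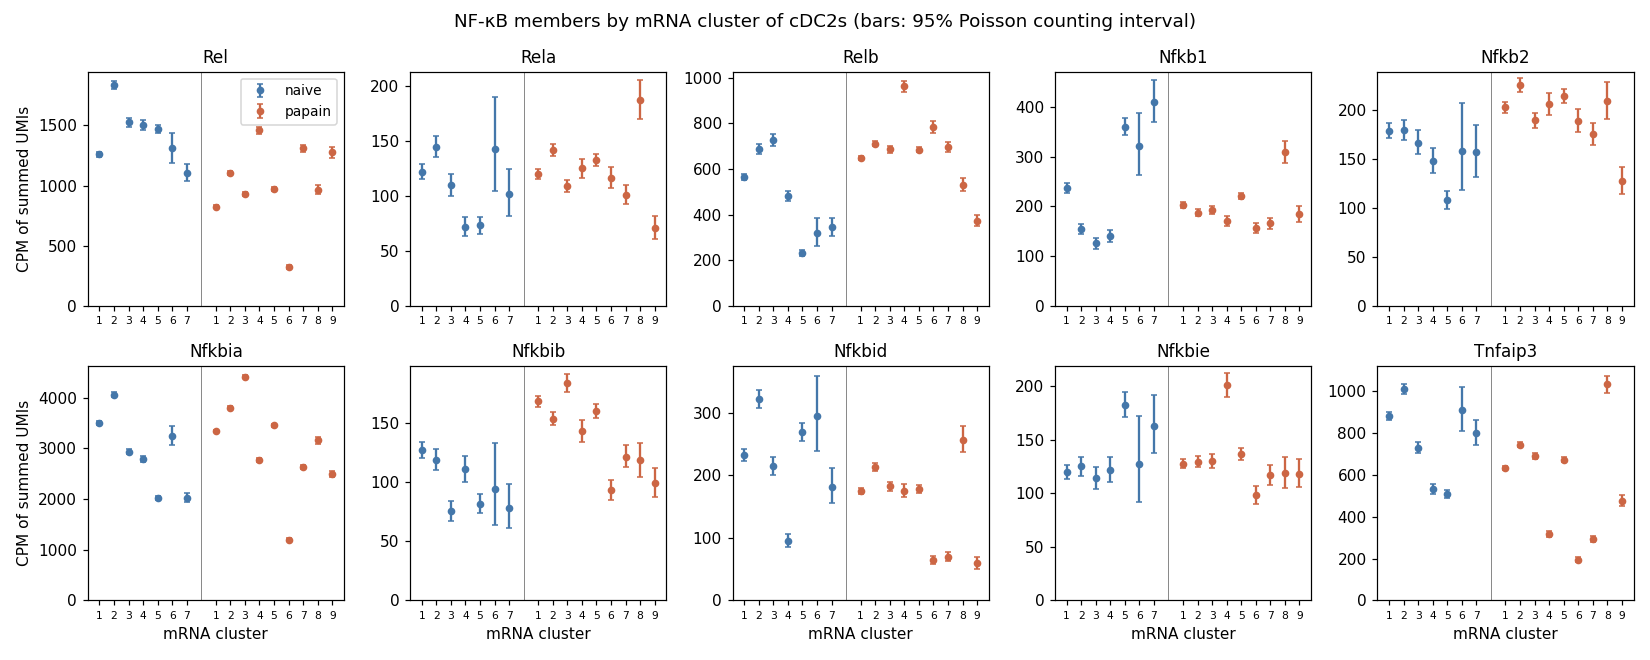
Level of each member in CPM of summed UMIs (linear axes from 0, 95% Poisson counting intervals) by the authors' mRNA clusters of cDC2s, naive clusters 1 to 7 in blue and papain clusters 1 to 9 in orange, numbered separately in each library. Papain cluster 6 is lowest for Rel, Nfkbia and Tnfaip3 but not for Relb, and papain cluster 8 is highest for Rela, Nfkb1, Nfkbid and Tnfaip3.

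Over the 10 groups of class and library, Nfkbid and Tnfaip3 (Pearson r = 0.87 of log2 CPM + 1), Nfkbia and Tnfaip3 (0.86) and Nfkbia and Nfkbid (0.77) had the most alike patterns among the members. Rel ran opposite to Nfkbib (−0.76) and Relb (−0.71). The 10 points share 2 libraries and their depth, so these are descriptions. Over the 2893 papain CD301b-high cells, Spearman's rho was 0.553 for Nfkbia and Tnfaip3, 0.312 for Nfkbid and Tnfaip3, and −0.121 for Relb and Tnfaip3, again as a description of cells that share a library.

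Of 2522 genes with a mean of at least 50 CPM over the 10 groups, Fxyd2 (r = 0.99), Smurf1 (0.97) and Mrtfa (0.96) were most like Nfkbia, and Aff1, Eef2 and Pabpc1 (0.97 each) most like Tnfaip3. For Relb they were Selplg, H2-D1 and Foxn2 (0.97 each), and for Nfkb2 Rad21, Ostf1 and Stap2 (0.97 each).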

How the data were processed

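The submitters' processing notes name Cell Ranger 3.0.1, mm10 and Partek. For each cell and gene the authors deposited log2 of CPM plus 1. Dividing by the worth of 1 UMI gave back UMIs, whole within 0.02 for 100% of values up to 50 UMIs. The antibody values the authors deposited are on a natural log (ln) scale and were used only for class medians and to split cDC2s anew into 3 equal classes by CD301b. Classes and mRNA clusters are the authors' labels. Cells without a class (429 naive, 290 papain) were left out of the comparisons. Naive cells held 3637 to 57378 UMIs, and cells of the papain library 2682 to 57150. UMIs were summed per class, and the CPM carry exact Poisson intervals. Log2 ratios, with no pseudocount, carry exact conditional binomial intervals. The ratio step was checked on simulated counts. Python 3.11.15, numpy 2.4.6, scipy 1.17.1 and pandas 2.3.3 were used. No doublet caller was run. The text names all 10 members, listed genes past 1.5-fold in CD301b-high cDC2s or in at least 3 classes, and the 3 genes most like each of 4 members. Fos, Atf3, Zfp36, Nfkbiz, Irf1, Tnf, Ikbkb, Map3k14 and Birc3 are examples from the lists, and Ikbkb and Map3k14, which lie outside that rule, were named after their values were seen. The members and lists were chosen with earlier results of these data known. Alternatives were the weighting of cells, scaling, pseudocount, cell filter, cells with T or B cell UMIs, equal CD301b classes, level filter and fold. The neutrophil markers were not analysed here.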

Additional observations from a re-analysis of the deposited data

Results flagged for a closer look

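For 5 results, the 95% counting intervals of a log2 ratio lay above 0 in one group and below 0 in another. With 1 library per condition none of these differences was tested. The papain to naive log2 ratio of Rel was 0.82 higher in cDC1s (0.19) than in LCs (−0.63). That of Nfkb1 was 1.48 higher in LCs (0.72) than in cDC1s (−0.77), where it was −0.02 without cells that held a T or B cell UMI. That of Nfkbia was 0.20 higher in cDC1s (0.14) than in CD301b-high cDC2s (−0.05). The CD301b-high to CD301b-low log2 ratio of Relb was 0.33 higher in the naive (0.26) than in the papain library (−0.08), and that of Nfkb1 0.23 higher in the papain (0.09) than in the naive library (−0.14). Without naive clusters 5 and 7, the naive ratios were 0.10 for Relb and 0.14 for Nfkb1.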

How the results depend on the processing

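No paired analysis was possible because there is 1 library per condition and the labels give no replicate numbers. For the 70 member ratios between libraries or between CD301b-high and CD301b-low cDC2s, 410 alternative values were computed. Of these 340 stayed within the 95% counting interval, 70 moved out of it, and 22 changed sign, for none of the ratios past 1.5-fold. The largest shift, 0.75, was that of Nfkb1 in cDC1s. Set relative to the median of all genes, the papain to naive medians in CD301b-high cDC2s were −0.089 for subunits and −0.15 for inhibitors, that of inhibitors in LCs was −0.012, the naive CD301b-high to CD301b-low inhibitor median was 0.67, and 2 members were past 1.5-fold in CD301b-high cDC2s. With the mean over single cells, the papain to naive inhibitor median was −0.10 in CD301b-high and 0.10 in CD301b-low cDC2s, with 1 member past 1.5-fold in the latter. With a pseudocount of 10 CPM, 1 member was past 1.5-fold in CD301b-intermediate and 1 in CD301b-low cDC2s, and the naive CD301b-high to CD301b-low inhibitor median was 0.59. Without cells with T or B cell UMIs, 2 members were past it in CD301b-intermediate cDC2s in place of 3, 1 was past it in CD301b-low cDC2s and 1 in cDC1s, and the same inhibitor median was 0.59. Without naive clusters 5 and 7, an alternative chosen after seeing the data, the papain to naive median was −0.094 for inhibitors in CD301b-high and 0.11 for subunits in CD301b-low cDC2s, the naive CD301b-high to CD301b-low inhibitor median was 0.48, and 1, 1 and 2 members were past 1.5-fold in CD301b-intermediate cDC2s, CD301b-low cDC2s and the naive CD301b-high to CD301b-low comparison. With the cDC2s split into 3 equal classes by the CD301b antibody value, the papain CD301b-high to CD301b-low medians were 0.014 for subunits and 0.33 for inhibitors. With a threshold of 25% in place of 50% higher, 5, 7, 4 and 4 members differed between the libraries in CD301b-high and CD301b-low cDC2s, cDC1s and LCs, and 4 between CD301b-high and CD301b-low cDC2s of the papain library. At 2-fold 0 members were past it in any of these 7 comparisons. The shares of all genes past either threshold are not given here, so these counts cannot be read as a result about the members.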

Other observations

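Droplets without an antibody class were split by whether they held a Cd3e or Trac UMI. The 237 naive and 241 papain droplets with such a UMI had 887.8 and 555.3 CPM of Nfkbia, 367.0 and 225.5 CPM of Rel, 141.7 and 87.1 CPM of Relb, and 417.4 and 248.0 CPM of Tnfaip3. Nfkb1 was at 173.6 and 161.9 CPM in them. The 192 naive and 49 papain droplets without such a UMI had 2755 and 2560.5 CPM of Nfkbia, 1214 and 1097 CPM of Rel, and 516.1 and 549.8 CPM of Relb. These lay within the range of the classes of their library, except for papain Rel, which was above the highest class value of 1086 CPM.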
